A study of Mus musculus with 8 samples.

Results

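Cyclins and cyclin-dependent kinases (CDKs) drive the cell cycle, and 10 genes of this family were followed here in regulatory T cells (Tregs) that carried or lacked TNF receptor 2 (TNFR2) at the surface. The genes were chosen by name, from a list ordered by cell cycle phase, and all 10 were found among the 20172 genes of the table of normalized counts. The list holds the D-type cyclins Ccnd2 and Ccnd3 with their kinase Cdk6 (G1), the E-type cyclins Ccne1 and Ccne2 with Cdk2 (G1 to S), cyclin A2 (Ccna2, S and G2), and the B-type cyclins Ccnb1 and Ccnb2 with Cdk1 (G2 and M). All 8 libraries came from spleens of mice of the genotype Foxp3 YFP-cre, in which a fusion of yellow fluorescent protein and Cre recombinase is made under the Foxp3 promoter, so that YFP marks cells expressing Foxp3, the transcription factor that defines Tregs. No treatment is named in the labels. The study's mice were young adults of both sexes, and the labels do not give the sex of these animals. CD4+ T cells were enriched and sorted as YFP+ TNFR2+ (4 libraries, TNFR2+ Tregs) or YFP+ TNFR2- (4 libraries, TNFR2- Tregs). The labels do not say whether the replicates were separate mice or pools, so the p-values measure only the spread between these samples, which may be technical.

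Cyclins are the regulatory subunits that switch CDKs on. In the usual order, cyclin D with CDK4 or CDK6 begins the inactivation of the retinoblastoma protein in G1, cyclin E with CDK2 completes it and starts DNA replication, cyclin A acts through S and G2, and cyclin B with CDK1 drives mitosis. The D-type cyclins are held up by growth and antigen receptor signals and are made in resting lymphocytes too, whereas transcripts of the A- and B-type cyclins and of Cdk1 appear in cells that have entered the cycle and are kept off in quiescent cells. In these bulk samples, fewer cells of a type and less RNA per cell cannot be told apart.

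Cell cycle promoters of the last kind are known for 2 short elements, the CCAAT box, which NF-Y binds, and the cell cycle genes homology region (CHR), through which the DREAM complex represses in quiescence. RefSeq promoter windows (GRCm38.p6, 250 bases before to 50 after a transcription start) matched 7 of the 10 genes, in 8 windows. No window was found for Ccnd2, Ccne2 or Ccna2. The bases before the start are shown for the G2 and M genes, whose log2 fold changes were positive, and for Cdk2, whose fold change had the opposite sign. They lie at chr13:100786487-100786736 (Ccnb1), chr9:70421555-70421804 (Ccnb2), chr10:69352913-69353162 (Cdk1) and chr10:128705052-128705301 (Cdk2), all on the minus strand. Each is written 5′ to 3′ along the gene and ends at the base before the start, and capitals mark CCAAT boxes (CCAAT or ATTGG) and CHR matches (TTTGAA or TTCAAA).
Ccnb1: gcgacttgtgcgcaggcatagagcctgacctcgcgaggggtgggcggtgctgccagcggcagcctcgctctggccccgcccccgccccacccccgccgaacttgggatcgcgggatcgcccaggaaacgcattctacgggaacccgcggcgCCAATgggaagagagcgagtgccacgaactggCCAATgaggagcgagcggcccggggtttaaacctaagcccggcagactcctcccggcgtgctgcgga
Ccnb2: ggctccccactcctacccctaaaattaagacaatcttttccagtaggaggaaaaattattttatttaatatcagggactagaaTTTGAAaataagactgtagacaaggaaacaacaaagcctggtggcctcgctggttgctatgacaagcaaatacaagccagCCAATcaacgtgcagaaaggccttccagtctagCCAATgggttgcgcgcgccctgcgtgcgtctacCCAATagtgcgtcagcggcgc
Cdk1: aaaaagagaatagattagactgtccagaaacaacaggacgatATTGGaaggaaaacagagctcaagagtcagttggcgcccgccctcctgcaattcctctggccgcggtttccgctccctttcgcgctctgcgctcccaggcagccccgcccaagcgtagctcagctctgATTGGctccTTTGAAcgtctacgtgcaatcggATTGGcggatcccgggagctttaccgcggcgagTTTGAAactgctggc
Cdk2: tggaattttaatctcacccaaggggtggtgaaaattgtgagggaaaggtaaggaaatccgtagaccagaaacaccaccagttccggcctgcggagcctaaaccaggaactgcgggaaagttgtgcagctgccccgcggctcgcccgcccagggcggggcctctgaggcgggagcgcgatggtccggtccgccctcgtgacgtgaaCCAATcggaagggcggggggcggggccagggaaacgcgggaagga

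Positions are counted from the start, with -1 the base before it, and each gives the first base of a match. Ccnb2 held CCAAT boxes at -87, -54 and -21, and CHR matches at -167 and at 5. Cdk1 held CCAAT boxes at -208, -80 and -48, CHR matches at -71 and -15, and words known from E2F sites at -178 and -130. In Ccnb1 the CCAAT boxes stood at -99 and -67, with an overlapping E2F word at -102 and no TTTGAA or TTCAAA. The B-type cyclins were thus not alike in these letters, but other forms of the CHR were not searched. Cdk2 held 1 CCAAT box, at -45, and E2F words at -140, -10 and 41. The E2F words searched, on both strands, were TTGGCGC as the first, TTCCCGC as the second, TTCGCGC as the third and TTGCCGC as the last. Cdk6, Ccne1 and the upstream Ccnd3 window had no match to any of these words, and the downstream Ccnd3 window had 1 CCAAT box, at -108. Among all 32851 windows in the table, 37.4% held a CCAAT box, 17.9% a CHR match, 9.57% an E2F word, and 6.95% both a CCAAT box and a CHR match, so a match is a description and not a binding site.

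**Figure D1:**
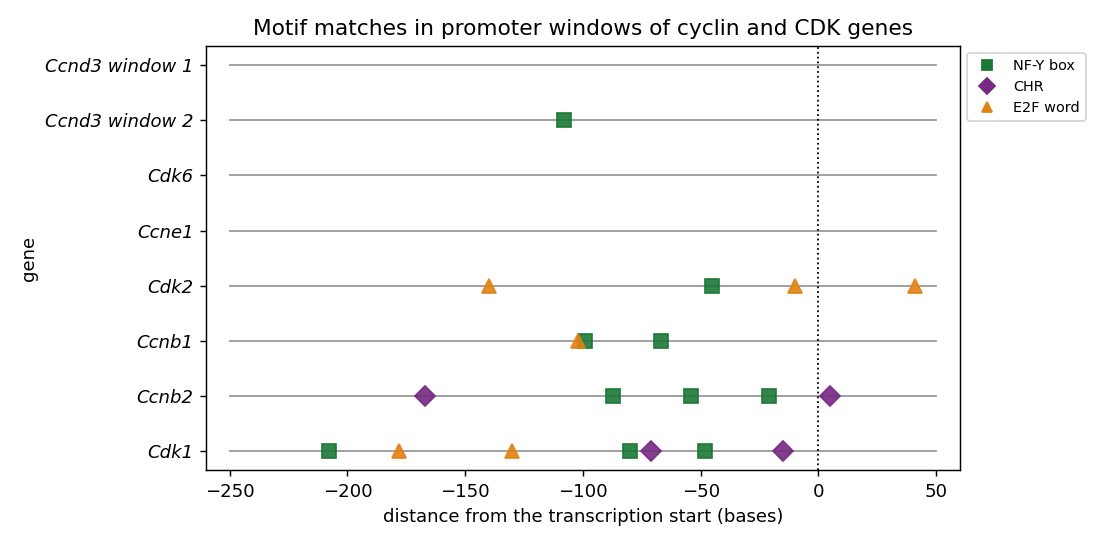
Matches to the NF-Y box (CCAAT), the CHR and E2F words (symbols) in the 8 promoter windows of 7 cyclin and CDK genes, by distance from the transcription start in bases. Ccnb2 and Cdk1 held 3 NF-Y boxes and 2 CHR matches each, Ccnb1 held 2 NF-Y boxes, and Cdk6 and Ccne1 held no match.

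The deposited normalized counts summed to between 9576920 and 10295226 in TNFR2+ libraries and between 10483291 and 11492762 in TNFR2- libraries. Taking the same factor for all genes of a library, the steps between low values corresponded to about 9615000 to 12110000 and 9100000 to 10980000 assigned reads. All 8 Treg markers were detected in every library, with Foxp3 at 2812 to 3313 normalized counts in TNFR2+ and 3292 to 4033 in TNFR2- Tregs. Tnfrsf1b, which encodes the sorted receptor, ranged from 1839.8 to 3148 against 1177 to 1563. Markers of B cells (9 of 12 listed genes in the table) summed to 433 to 558 against 249 to 519, with Cd79a at or under 6.10 in every library, Ms4a1 at 45.0 to 79.9 against 19.6 to 99.4, and Cd22 at 273 to 350.3 against 54.7 to 223, without overlap. Those of myeloid cells (7 of 12) summed to 164 to 217 against 288 to 499.5, those of CD8 and NK cells (6 of 8) to 92.4 to 119.5 against 98.0 to 152, and those of plasma and germinal centre B cells (7 of 8) to 1635 to 1819 against 1314 to 1772, with the plasma cell marker Sdc1 at or under 16.7 in every library. The erythroid list (1 of 8, Alas2) reached at most 12.1 and the platelet list (1 of 5, Itga2b) 12.2 to 221 against 31.2 to 178. The part of these cells in the results was not tested. On the second principal component, TNFR2- replicate 3 stood apart from the other libraries.

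The comparison of TNFR2+ with TNFR2- Tregs asks whether the cell cycle machinery differs between the subsets. Transcripts of cyclin A2, cyclin B2 and Cdk6 rose in TNFR2+ Tregs, and those of no member fell past the threshold. Log2 fold changes ran from -0.45 to 0.82 for the G1 genes, from -0.63 to 2.34 for the G1 to S genes, and from 2.23 to 3.74 for the genes of S, G2 and M. Of the 10 genes, 3 passed an adjusted p of 0.05 (limma on log2(normalized count + 1), Benjamini-Hochberg over 13990 genes with a mean of at least 10), all 3 higher. Among all genes tested, 4.52% were called higher and 3.39% lower. The TNFR2+ libraries lay above all TNFR2- libraries for 4 members (background 8.08%) and below them all for 1 (background 7.29%). An unadjusted limma p under 0.05 was found for 8 of the 10 members (80%), against 23.0% of all genes tested. The median log2 fold change was 1.52 over the 10 members and -0.01 over all genes tested. With any 1 of TNFR2+ replicates 1, 2 or 3 left out, 1 member was called. Without TNFR2- replicate 3, 2 members were called.

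**Figure D2:**
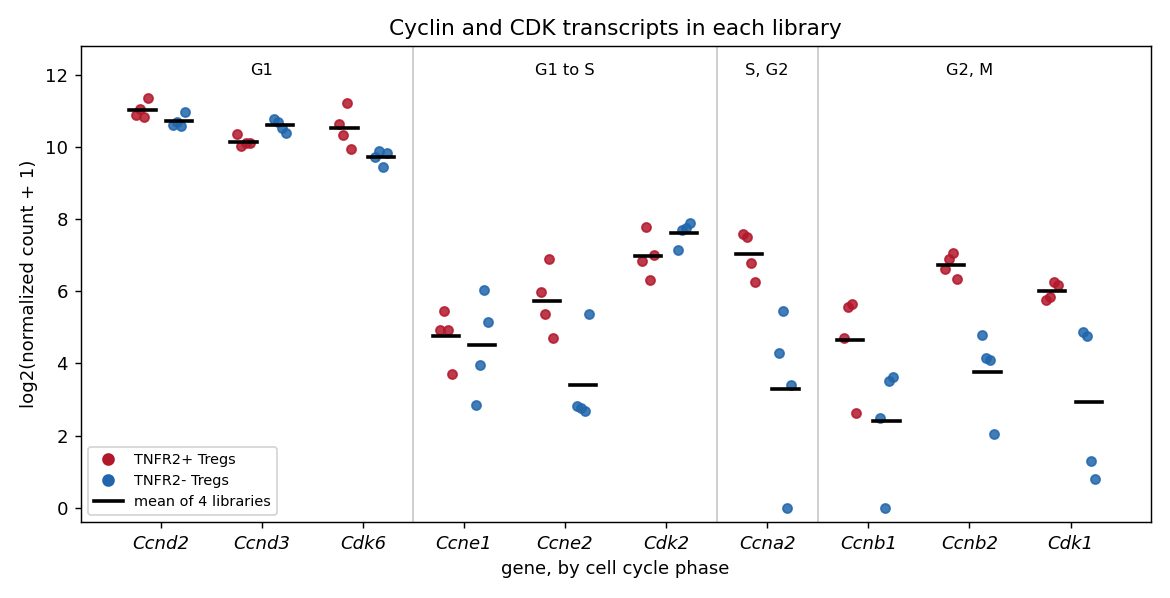
Log2(normalized count + 1) of each cyclin and CDK gene in each library, by cell cycle phase (points, TNFR2+ in red and TNFR2- in blue, 4 libraries each; bars, group means). The G1 genes sit highest in both groups, and for Ccna2, Ccnb2 and Cdk1 every TNFR2+ point lies above every TNFR2- point.

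In G1, fold changes were small and of both signs. Each gene is given with its Ensembl identifier and its position on GRCm38 (GENCODE). Ccnd2 (ENSMUSG00000000184, chr6:127125162-127152193, minus strand), which encodes cyclin D2, had 1881, 2141, 1813 and 2631 normalized counts in TNFR2+ Tregs and 1568, 1653, 1532 and 1996 in TNFR2- Tregs. TNFR2+ replicates 2 and 4 exceeded every TNFR2- library, and the ranges overlapped. The means were 2116 ± 371 and 1687 ± 212 (SD, n = 4), a log2 fold change of 0.32 (0.14 as its SE, the standard error, limma adjusted p = 0.208).

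Ccnd3 (ENSMUSG00000034165, chr17:47505051-47599691, plus strand) encodes cyclin D3, the D-type cyclin that developing lymphocytes depend on. It had 1321, 1039.7, 1106 and 1095 normalized counts in TNFR2+ and 1753, 1657, 1486 and 1351 in TNFR2- Tregs. All TNFR2+ libraries were below all TNFR2- libraries, with a narrow gap between TNFR2+ replicate 1 and TNFR2- replicate 4. The means were 1140.4 ± 124 and 1562 ± 179 (SD, n = 4). The log2 fold change was -0.45 (SE 0.14, limma adjusted p = 0.0590), just short of the threshold, and the adjusted p was 0.0448 without TNFR2- replicate 4. A processed pseudogene, Ccnd3-ps, was listed at 0 to 6.07.

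The fold changes of the D-type cyclins had opposite signs. They were among the 5 pairs of genes with like roles whose balance was examined within each library. The log2 ratio of Ccnd2 to Ccnd3 was 0.51, 1.04, 0.71 and 1.26 in TNFR2+ Tregs and -0.16, 0.00, 0.04 and 0.56 in TNFR2- Tregs. The groups overlapped only through TNFR2+ replicate 1 and TNFR2- replicate 4. The ratio was higher by 0.77 in TNFR2+ Tregs (SE 0.23, two-sided exact permutation p = 0.0571, adjusted over 5 ratios p = 0.143), and did not pass. Per kilobase of the longest coding transcript, Ccnd2 made up 32.2% to 44.5% of the summed D2 and D3 level in TNFR2+ and 23.0% to 33.0% in TNFR2- Tregs. With the median coding transcript of each gene in place of the longest, Ccnd2 made up 56.0% to 68.3% in TNFR2+ and 44.5% to 56.9% in TNFR2- Tregs, so which of them leads depends on the transcript taken.

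Cdk6 (ENSMUSG00000040274, chr5:3341485-3531008, plus strand), the kinase partner of D-type cyclins that predominates in many blood cells, rose in TNFR2+ Tregs. It had 1585, 1296, 2387 and 989 normalized counts against 840.4, 947, 696 and 908. Every TNFR2+ library was above every TNFR2- library, but TNFR2+ replicate 4 only narrowly, and the TNFR2+ libraries spread far more widely. The means were 1564 ± 599.9 and 848 ± 111 (SD, n = 4), a log2 fold change of 0.82 (SE 0.23, limma adjusted p = 0.0419), or 1.76-fold. This call was fragile. It was kept without TNFR2+ replicate 4 (adjusted p = 0.0126) and lost without any other single library, with adjusted p = 0.107, 0.0693 and 0.103 without TNFR2+ replicates 1, 2 and 3, and 0.0882, 0.0722, 0.0849 and 0.0747 without TNFR2- replicates 1 to 4. The related kinase Cdk4 had 384, 449, 449 and 217 against 227, 143, 183 and 272, a log2 fold change of 0.84 (SE 0.28, limma adjusted p = 0.0850). Tspan31, on the opposite strand, shares 641 bases, or 19.7%, of the Cdk4 exons. It had 143 to 320.1 against 41.4 to 98.9 normalized counts, and its part in the Cdk4 values was not tested. The log2 ratio of Cdk6 to Cdk4 differed by only -0.03 between the groups (SE 0.29, exact permutation p = 0.914).

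At the G1 to S transition the E-type cyclins were low. Ccne1 (ENSMUSG00000002068, chr7:38097984-38107534, minus strand), encoding cyclin E1, had 29.7, 42.5, 29.5 and 12 normalized counts in TNFR2+ and 6.26, 14.4, 64.7 and 34.7 in TNFR2- Tregs. The TNFR2- libraries spread both below and above the TNFR2+ range. The log2 fold change was 0.25 (95% interval -1.30 to 1.80, limma adjusted p = 0.875), an interval too wide to set a direction.

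Ccne2 (ENSMUSG00000028212, chr4:11191351-11204779, plus strand), encoding cyclin E2, had 62.2, 40.7, 118 and 25.1 normalized counts in TNFR2+ and 6.09, 5.77, 5.36 and 40.0 in TNFR2- Tregs. In TNFR2- replicates 1 to 3 it was nearly equal and low, whereas replicate 4 reached the TNFR2+ range. The log2 fold change of 2.34 (SE 0.73) missed the threshold (limma adjusted p = 0.0694), and was 2.99 with an adjusted p of 0.0225 without TNFR2- replicate 4. Exons of Ints8 on the opposite strand cover 609 bases, or 17.4%, of the Ccne2 exons, and Ints8 had 462 to 717 against 391 to 530.1 normalized counts. Whether reads were assigned by strand is not given in the sources used here. The log2 ratio of Ccne1 to Ccne2 was -1.04, 0.06, -1.96 and -1.01 against 0.03, 1.19, 3.37 and -0.20, a difference of -2.09 (SE 0.91, exact permutation p = 0.0857, adjusted p = 0.143).

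Cdk2 (ENSMUSG00000025358, chr10:128697939-128705031, minus strand), the kinase that cyclins E and A activate, had 113, 221, 78.1 and 128 normalized counts in TNFR2+ and 140.5, 206, 215 and 235 in TNFR2- Tregs. Apart from replicate 2, the TNFR2+ libraries lay below all TNFR2- libraries. The means were 135 ± 61.2 and 199 ± 41.0 (SD, n = 4), and the log2 fold change was -0.63 (SE 0.32, limma adjusted p = 0.261).

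Ccna2 (ENSMUSG00000027715, chr3:36564865-36572150, minus strand), which encodes cyclin A2, the cyclin of S phase and G2, had the largest fold change of the 10 genes with all libraries kept. It had 190.5, 179.8, 109 and 75.5 normalized counts in TNFR2+ Tregs and 18.7, 42.6, 0 and 9.55 in TNFR2- Tregs. Every TNFR2+ library was above every TNFR2- library, and in TNFR2- replicate 3 the gene was listed at 0. The log2 fold change was 3.74 (SE 0.92, limma adjusted p = 0.0240). Its size rests on the low TNFR2- values: it was 2.65 without TNFR2- replicate 3 (adjusted p = 0.00963), below the 3.07 of Ccnb2 in that fit, and 4.46 without TNFR2- replicate 2. In the 10 other fits to all 8 libraries it lay between 2.99 and 4.02. The call was lost without TNFR2+ replicate 1, 2 or 3 (adjusted p = 0.0775, 0.0771 and 0.0631) or TNFR2- replicate 4 (adjusted p = 0.0569). Exosc9, on the opposite strand, shares 510 bases, or 12.5%, of the Ccna2 exons, and had 215 to 297 against 171 to 186 normalized counts.

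Of the B-type cyclins, which activate Cdk1 in mitosis, Ccnb2 (ENSMUSG00000032218, chr9:70407692-70421547, minus strand) gave the most stable difference. It had 96.4, 119, 132 and 79.9 normalized counts in TNFR2+ and 26.4, 16.8, 16.2 and 3.11 in TNFR2- Tregs. The lowest TNFR2+ library was well above the highest TNFR2- library. The means were 107 ± 23.2 and 15.6 ± 9.56 (SD, n = 4), a log2 fold change of 2.96 (SE 0.58, limma adjusted p = 0.00690), or 7.77-fold. It passed the threshold in all 10 alternative fits and in all 8 fits that left out 1 library. The TNFR2- values are low, and the log2 fold change was 2.38 without TNFR2- replicate 4 and 3.29 without TNFR2- replicate 1.

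Ccnb1 (ENSMUSG00000041431, chr13:100778650-100786570, minus strand), the other B-type cyclin, had 24.9, 46.7, 49.2 and 5.22 normalized counts in TNFR2+ and 4.56, 0, 10.5 and 11.4 in TNFR2- Tregs. TNFR2+ replicate 4 fell inside the TNFR2- range and the remaining TNFR2+ libraries lay above it. The log2 fold change was 2.23 (SE 1.01, limma adjusted p = 0.205). It was 1.43 without TNFR2- replicate 2, where the gene was listed at 0, 2.90 without TNFR2+ replicate 4, and 1.53 with a pseudocount of 5. The genome holds 3 processed pseudogenes at least 97.3% identical to Ccnb1 (Ccnb1-ps, Gm12856 and Gm8416), so the share of reads assigned to Ccnb1 is uncertain. The log2 ratio of Ccnb1 to Ccnb2 differed by -0.73 (SE 1.35, exact permutation p = 0.657), and an effect on one B-type cyclin that differs from the effect on the other was not detectable here.

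Cdk1 (ENSMUSG00000019942, chr10:69335146-69352938, minus strand), the mitotic kinase, had 52.9, 55.9, 75.0 and 71.9 normalized counts in TNFR2+ and 28.4, 26.0, 1.47 and 0.723 in TNFR2- Tregs. The TNFR2+ libraries were tight and all above the TNFR2- libraries, which fell into a higher pair (replicates 1 and 2) and a lower pair near 0 (replicates 3 and 4). The latter values correspond to about 1 read each. The means were 63.9 ± 11.1 and 14.2 ± 15.1 (SD, n = 4). The log2 fold change of 3.07 (SE 0.90) narrowly missed the threshold (limma adjusted p = 0.0547), and passed without TNFR2- replicate 1 (adjusted p = 0.0299) or replicate 2 (0.0374). It was 3.72 and 3.68 in those fits, 2.53 and 2.36 without TNFR2- replicates 3 and 4 (adjusted p = 0.0958 and 0.114), and 2.29 with a pseudocount of 5.

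The fold changes of Cdk1 and Cdk2 had opposite signs. Within libraries the log2 ratio of Cdk1 to Cdk2 was -1.08, -1.97, -0.06 and -0.83 in TNFR2+ and -2.27, -2.94, -6.45 and -7.10 in TNFR2- Tregs. The groups did not overlap. The difference was 3.71 (SE 1.28, two-sided exact permutation p = 0.0286, the smallest that 4 against 4 libraries allow), and after adjustment over the 5 ratios p was 0.143. It was 2.90 without TNFR2- replicate 4, 4.51 without TNFR2- replicate 1 and 2.90 with a pseudocount of 5, and 2 TNFR2- libraries held about 1 Cdk1 read each.

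**Figure D3:**
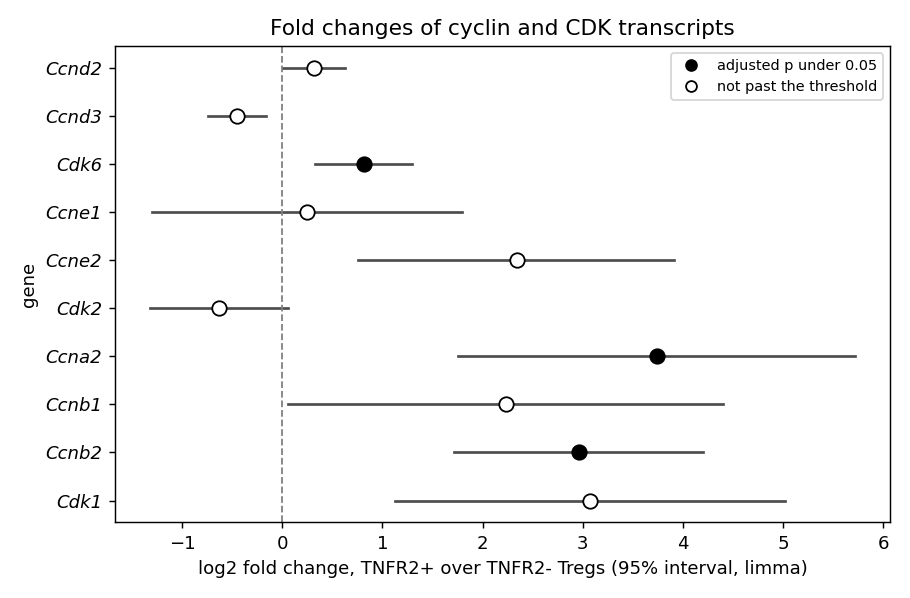
Log2 fold change, TNFR2+ over TNFR2- Tregs, of each cyclin and CDK gene with its 95% interval (limma, 4 libraries per group; filled points, adjusted p under 0.05). Ccna2, Ccnb2 and Cdk6 are filled, Ccnd3 and Cdk2 lie below 0, and the intervals of the low genes from Ccne1 on are wide.

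**Figure D4:**
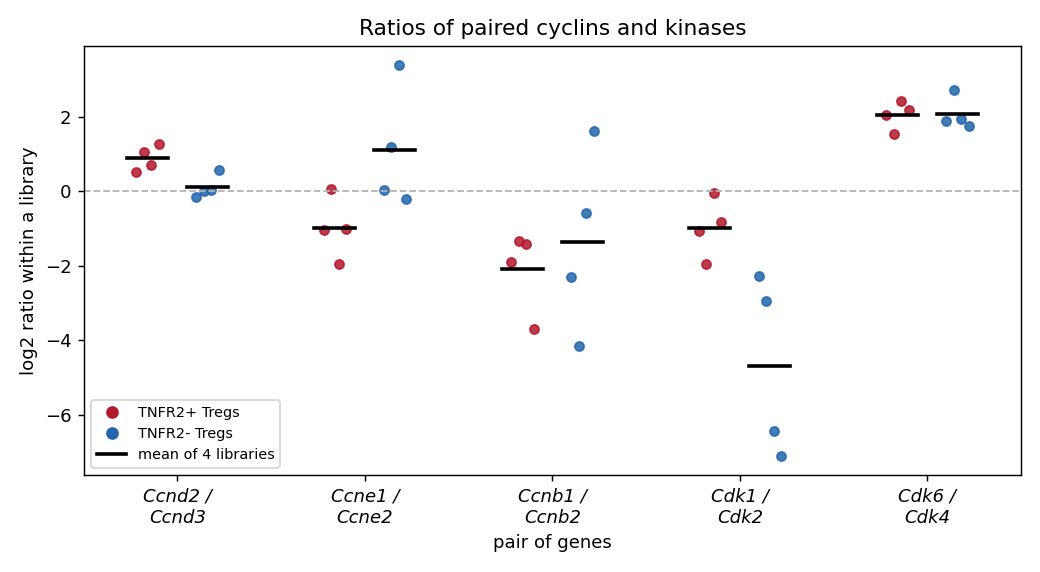
Log2 ratio within each library of 5 pairs of cyclins or kinases (points, TNFR2+ in red and TNFR2- in blue, 4 libraries each; bars, group means). The groups are separate for Cdk1 to Cdk2 and overlap for the other 4 pairs.

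Ordered by level per kilobase of the longest coding transcript, the D-type cyclins stood first in both groups. In TNFR2+ Tregs, Ccnd3 came first with 539.7 ± 58.7 normalized counts per kilobase, then Ccnd2 with 334 ± 58.6 and Cdk6 with 136 ± 52.1 (SD, n = 4). Ccnb2 followed with 69.8 ± 15.2, Cdk2 with 56.2 ± 25.4 and Ccna2 with 46.8 ± 18.7, then Ccne2, Cdk1, Ccne1 and Ccnb1 between 20.4 and 12.7. Below Ccnd2, with Cdk4 in the order, the ranges of every pair of neighbours overlapped. In TNFR2- Tregs, Ccnd3 stood at 739 ± 84.5, Ccnd2 at 267 ± 33.5, Cdk2 at 82.8 ± 17.0 and Cdk6 at 73.6 ± 9.59, and the other 6 genes between 15 and 2.66. Every library had more Cdk6 per kilobase than any had of those 6 genes, and among them neighbours overlapped. Ccnb2 and Ccna2 thus overlapped Cdk2 in TNFR2+ Tregs and lay under it in every TNFR2- library. The order depends on the transcript taken: the longest coding transcript of Cdk6 spans 11525 bases and the median one 697, and those of Cdk1 4375 and 1253.

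Across all 8 libraries, Cdk1 followed Ccnb2 (Pearson r = 0.88) and Ccna2 (r = 0.86) on the log2 scale, and Ccna2 followed Ccnb2 (r = 0.72). Ccnb1 followed Cdk1 weakly (r = 0.17), and Cdk6 went with Ccne2 (r = 0.86). These values are descriptions: the libraries share the difference between the groups and their depth. The other genes most like a member over the 8 libraries were Nfya, Stradb and Slc19a1 for Ccnd2 (r from 0.95 to 0.97), Lncpint, Map4k4 and Nr1d2 for Ccnd3 (r = 0.98), and Tob2, Angel2 and Dnajc19 for Cdk6 (r from 0.97 to 0.98). For Ccne1 they were Rnaset2b, Ikbkg and Aph1a (r from 0.92 to 0.94), for Ccna2 Gstp1, Nusap1 and Fancd2 (r from 0.96 to 0.97), and for Ccnb1 Tm2d2, Lgals1 and Zfp870 (r from 0.97 to 0.98). Between 8 and 88 of the roughly 10245 genes compared reached an r of 0.9 with a given member.

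The remaining genes of the pathway were followed by lists. Of the other cell cycle cyclins and CDKs, 2 were tested and 1 rose (50%, against 7.91% of all genes tested called either way). A share of 2 genes says little. Ccnf, an F-box protein that carries a cyclin fold and directs ubiquitination, had 102, 122, 60 and 51.4 normalized counts against 20.3, 12.7, 26.4 and 3.05, with no overlap and a log2 fold change of 2.57 (SE 0.62, limma adjusted p = 0.0228). Ccnb3 was above 0 in 1 library only, and Ccnd1, Ccna1 and Cdk3 were not analysed here. Among 14 tested cyclins of transcription, splicing and other roles, 1 rose and 1 fell (14.3%, against 7.91% of all genes tested). Ccng1, a p53 target, had 777 ± 40.8 against 503 ± 30.5 (SD, n = 4; log2 fold change 0.63, adjusted p = 0.0156), and Ccnl1, a cyclin of splicing, had 3595 ± 259 against 5183 ± 216 (log2 fold change -0.53, adjusted p = 0.00516). None of the 13 tested CDKs of transcription and other roles was called by limma. Of them, 3 (23.1%) had an unadjusted p under 0.05, against 23.0% of all genes tested. For the 14 cyclins this share was 28.6%. The median log2 fold change was 0.00 over these cyclins and -0.02 over these CDKs.

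Among 10 tested CDK activators and inhibitory kinases, 1 rose, a share (10%) near the 7.91% called either way over all genes tested. However, 50% of them had an unadjusted limma p under 0.05, against 23.0% of all genes tested. Their median log2 fold change was 0.60, with 8 genes above 0 and 2 below. Aurka, the kinase that helps trigger mitotic entry, had 86.9, 109, 125 and 78.1 normalized counts against 34.5, 20.0, 39.4 and 25.3, with no overlap and a log2 fold change of 1.73 (SE 0.38, limma adjusted p = 0.0138). Of 8 listed CDK inhibitors, 5 were tested and 1 fell (20%, against 7.91% of all genes tested called either way). An unadjusted limma p under 0.05 was found for 60% of the 5. The median log2 fold change of the 5 was -0.49, with 4 below 0 and 1, Cdkn2c, above it (1.04, limma adjusted p = 0.199). Cdkn2a, Cdkn2b and Cdkn3 were too low to test. Cdkn1b, encoding p27, which restrains cyclin E with CDK2, had 1655, 1532, 1659 and 1625 against 2051, 2131, 1994 and 2606. The groups did not overlap, and the log2 fold change was -0.43 (SE 0.12, limma adjusted p = 0.0443).

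Of 23 ubiquitin ligase genes that act on cyclins or CDK inhibitors, 1 rose. Ube2c, the conjugating enzyme of the anaphase-promoting complex, had 142, 164, 118 and 58.8 normalized counts against 45.1, 27.4, 43.7 and 17.9, a log2 fold change of 1.81 (SE 0.44, limma adjusted p = 0.0230). Of 22 tested transcription factors of cell cycle promoters, 1 rose and 1 fell. Tfdp1, the DNA-binding partner of E2F proteins, had 413 ± 67.6 against 208 ± 58.5 (SD, n = 4; log2 fold change 1.02, adjusted p = 0.0178). Rb1, which encodes the retinoblastoma protein that holds E2F in check, had 701, 720.5, 594 and 590.3 against 1117, 976, 1133 and 835, with no overlap and a log2 fold change of -0.63 (SE 0.15, adjusted p = 0.0219). Foxm1, a factor known to activate G2 and M promoters, was picked out after its values were seen. It had 224, 229, 133 and 81.9 against 45.6, 254, 263 and 196, a log2 fold change of -0.03 (SE 0.51, limma adjusted p = 0.985). Its part in the differences was not tested. The shares called either way, 9.09% of the transcription factors and 4.35% of the ubiquitin ligase genes, were also near that of all genes tested. Those with an unadjusted limma p under 0.05 were 22.7% and 21.7%, against 23.0% of all genes tested.

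**Figure D5:**
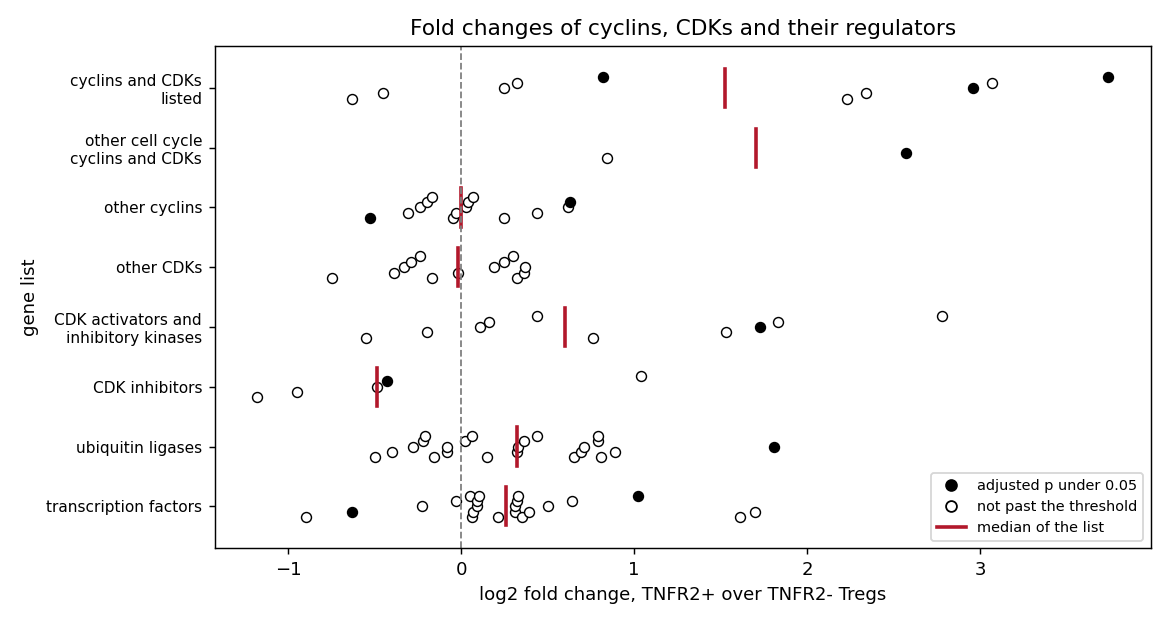
Log2 fold change, TNFR2+ over TNFR2- Tregs, of each tested gene (points; filled, limma adjusted p under 0.05) in the lists of cyclins, CDKs and their regulators, with list medians (red bars). The 10 listed cyclins and CDKs have a median of 1.52, the tested CDK inhibitors -0.49, and the cyclins and CDKs of transcription and other roles 0.00 and -0.02.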

How the data were processed

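RNA from sorted splenic Tregs of 4 TNFR2+ and 4 TNFR2- samples was made into SMARTer stranded total RNA libraries and sequenced on a NovaSeq instrument. Per the submitters' processing notes and the study's methods, reads were checked with FastQC 0.11.8, trimmed with Trim Galore, quantified with Salmon 1.3.0 against the Ensembl GRCm38 transcriptome and normalized in DESeq2 1.28. The deposited values are these normalized counts, a signal that is not whole-number counts: the authors normalized Salmon estimates in DESeq2, which sets libraries to a common scale. Whether the same factor was applied to all genes of a library is not given in the sources used here. Whether reads were counted by strand is not given in the sources used here. Of 20172 Ensembl identifiers, 20008 matched a symbol. Groups came from the sample titles.

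A count test was not used, since the share of low values of single-transcript genes within 0.1 of a whole number of reads was 69.7% to 96.5% per library. The main test was limma 3.58.1 (R 4.3.3) with an intensity trend on log2(value + 1), keeping genes that averaged 10 or more, with Benjamini-Hochberg adjustment over all 13990. A fold change on this scale compares mean log2 values, not mean counts, and for low genes a larger pseudocount gives a smaller one. Ratios of 5 gene pairs were compared by two-sided exact permutation over the 70 relabellings. The fits were tested on simulated data. Copies were sought with blastn 2.17.0 (at least 95% identity over 500 bases) and overlapping exons in GENCODE (GRCm38). Promoter windows are RefSeq sequences of GRCm38.p6. Other pseudocounts, filters, scalings, no trend, quality weights, a replicate block and leaving out each library were tried.

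All 10 members are named whatever their values. Of the pathway lists, the genes past the threshold are named, and for 6 members the 3 genes of mean at least 50 with the highest Pearson r. The members and lists were chosen with earlier results of these data known.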

Additional observations from a re-analysis of the deposited data

Results flagged for a closer look

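In TNFR2- Tregs, Ccne2 in replicate 4 (40.0 normalized counts) stood far from replicates 1 to 3 (6.09, 5.77 and 5.36). On the scale of log2(normalized count + 1), the gap to the nearest library was 0.941 of the group's range, over Dixon's 95% limit for 4 samples. Among the 10 members and 5 ratios, 30 groups were examined in this way and 1 was over the limit, and chance gives about 1 in 20. In the same library, Ccne1 (34.7) lay within the range of its group, Ccna2 was at 9.55 and Cdk1 at 0.723.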

How the results depend on the processing

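Over 10 alternatives that kept all libraries, 1 to 4 of the cyclin and CDK genes were called, against 3 as reported. Without the intensity trend, 1 was called (Ccnb2), with 465 genes called in all against 1107; Cdk6 (adjusted p = 0.15) and Ccna2 (0.102) were lost there, and Cdk6 also with quality weights (0.0517). Cdk1 passed with a pseudocount of 5 (adjusted p = 0.0351) and with a minimum mean of 1 or no filter (0.0474), and Ccnd3 passed with a minimum mean of 50 (0.0464) and with quality weights (0.0387), as lower. A minimum mean of 50 left Ccne1, Ccne2, Ccnb1 and Cdk1 untested. Leaving out 1 library gave 642 to 1301 genes and 1 to 3 members called. The direction turned for Ccne1 without TNFR2- replicate 1 (log2 fold change -0.30, with a range of -0.30 to 0.76 without 1 library), for the ratio of Ccnb1 to Ccnb2 without TNFR2- replicate 4 (0.26), and for that of Cdk6 to Cdk4 without replicate 2 of TNFR2+ (0.15) or TNFR2- (0.19); the ranges without 1 library were -1.66 to 0.26 and -0.15 to 0.19. The cause was not tested.

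Deviations of same-numbered libraries correlated at 0.00, -0.01, -0.04 and -0.01, and those of other-numbered libraries between -0.10 and 0.08. No pairing by replicate number was seen in this measure, which cannot exclude that same-numbered samples shared a mouse or a sort. With the replicate number as a block, 1183 genes and 2 members (Ccna2 and Ccnb2) were called, with Cdk6 at an adjusted p of 0.0589. No ratio passed its adjusted test under any setting, and without 1 library the smallest unadjusted exact p is 0.0571, so these tests say nothing on stability. The low values of Ccne1, Ccne2, Ccna2, Ccnb1, Ccnb2 and Cdk1 in TNFR2- Tregs limit their fold changes.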
